A study of Arabidopsis thaliana with 15 samples.

Results

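Broad start clusters of single-start genes were examined in 15 libraries of CAGE, a method that captures the 5′ caps of transcripts and sequences the bases next to them. Each tag was taken to mark a transcription start site (TSS). The authors state that an internal abasic site in RNA could also give CAGE signal. They checked chosen genes by 5′-RACE, another way to map capped ends. No second method was applied here, so tags inside exons were not shown to be starts. Neighbouring TSSs on a strand had been joined into tag clusters (TCs). A gene was taken to have a single start where 1 TC held exactly the counts of the gene in all 15 libraries, and its TC was called broad where it spanned 250 bp or more. Of 26677 TCs in the table, 15580 on chromosomes 1 to 5 were the only start of a gene, and 1186 of these were broad. A further 9163 single-start TCs spanned from 100 bp to under 250 bp, and 5231 spanned less than 100 bp. The choice used the match of counts and the width, with no limit on level or on change. Clusters were drawn on the tags of all libraries together, so width can move with level.

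The libraries came from whole 14-day-old Arabidopsis thaliana seedlings of the Col-0 ecotype, in pools of 10, which had all received the flg22 peptide at 3.3 µM in DMSO. flg22 is a fragment of bacterial flagellin that plant cells perceive through the receptor FLS2. The 5 groups of 3 libraries were rrp4-2 at 30 min, hen2-4 at 30 min, hen2-4 at 10 min, wild type (wt) at 30 min and wt at 10 min. RRP4 is a core subunit of the RNA exosome, which degrades RNA from the 3′ end, and rrp4-2 is a hypomorphic allele, so the exosome is weakened and not removed. HEN2 is an RNA helicase that serves the nuclear exosome, and hen2-4 is a T-DNA insertion line. No untreated library was used, so a change between 10 and 30 min in the medium cannot be told apart from a response to the peptide.

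Promoters differ in how precisely they place the first base of a transcript. Some start at 1 or a few neighbouring bases, often downstream of a TATA box, while others start at many positions over a wider stretch and more often lack that element. The start position sets the length of the 5′ leader that ribosomes scan before the start codon. A start inside the coding sequence removes that start codon from the transcript.

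Tags in TCs numbered from 14114750 to 25127030 per library, and 13.8% to 15.5% of them lay in the 1186 broad TCs. Correlation of log2 levels between replicates was from 0.953 to 0.982, with both lowest values on wt 30 min replicate 3, whose normalization factor of 0.807 was also the lowest of the 15. HEN2 itself had 6.24 ± 1.94 CPM (tag counts scaled to a common library total by edgeR's TMM method) in hen2-4 at 30 min and 44.5 ± 11 CPM in wt at 30 min. At 10 min HEN2 had 9.44 ± 0.70 CPM in hen2-4 and 42.5 ± 6.67 CPM in wt (SD, n = 3 each). RRP4 had 20.6 ± 1.96 CPM in rrp4-2 and 18.4 ± 4.17 CPM in wt at 30 min, which checks nothing because a hypomorphic allele can be transcribed in full. Replicates were pools of seedlings from separate wells, grown and treated in parallel from the same seed batch.

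The 150 bases upstream of 5 broad clusters are printed because these members had the largest rise in wt and hen2-4 (HSP101), the largest fall in wt (HBI1) or in hen2-4 (BGAL4), the greatest width (CWLP) and the highest level (DRT112). Each window ends 1 base before the annotated start (the annotated 5′ end of the gene farthest upstream) or before the TC, whichever lies farther upstream, and reads 5′ to 3′ on the strand of the gene. Sequence and annotation are from RefSeq's TAIR10.1 assembly, and capitals mark matches on either strand to any of 10 motifs. These were TATAAA as well as TATATA for the TATA box, the pyrimidine-rich TCTTCT along with CTCTCT, the GAGAGA repeat, TTGACC together with TTGACT for the W-box, the TGGGCC element, AAACCCTA for the telo box, plus CACGTG, the G-box. The motif CTCTCT read on the other strand is AGAGAG, which overlaps GAGAGA by all but 1 base.
HSP101 (chr1:27940370-27940519, minus strand): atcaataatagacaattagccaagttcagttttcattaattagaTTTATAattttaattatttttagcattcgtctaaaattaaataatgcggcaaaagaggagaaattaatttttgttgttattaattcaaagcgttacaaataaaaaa
HBI1 (chr2:7954786-7954935, minus strand): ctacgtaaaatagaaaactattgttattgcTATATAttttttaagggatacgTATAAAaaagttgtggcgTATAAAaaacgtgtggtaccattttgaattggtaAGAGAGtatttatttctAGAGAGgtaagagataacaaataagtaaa
BGAL4 (chr5:23003759-23003908, plus strand): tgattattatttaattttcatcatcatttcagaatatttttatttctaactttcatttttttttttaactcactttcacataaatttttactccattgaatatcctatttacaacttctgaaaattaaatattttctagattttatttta
CWLP (chr3:7796461-7796610, minus strand): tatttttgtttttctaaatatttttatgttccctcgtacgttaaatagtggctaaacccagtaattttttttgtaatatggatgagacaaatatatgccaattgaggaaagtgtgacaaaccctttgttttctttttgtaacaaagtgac
DRT112 (chr1:7043462-7043611, minus strand): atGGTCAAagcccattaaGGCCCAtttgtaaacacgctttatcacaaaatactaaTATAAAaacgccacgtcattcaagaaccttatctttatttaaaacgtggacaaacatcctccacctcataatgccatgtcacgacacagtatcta
The window of BGAL4 and that of CWLP held none of the 10 motifs. The first base of TATAAA lay at positions -98 and -80 in HBI1 and at -95 in DRT112, counted from -1 at the last base of the window. The only match in HSP101 was TATAAA on the other strand, printed as TTTATA from position -106. TATAAA was present in 29.3% of the windows of broad TCs and in 32.2% of all 15546 single-start windows. TGGGCC, an element frequent in promoters of ribosomal protein genes, was present in 11.1% and 15.5%.

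Broad clusters reached farther into the gene, and a small share also reached farther upstream. The downstream edge lay a median of 306 bp downstream of the annotated start for broad TCs and 171 bp for other single-start TCs, once the others were weighted over 7 bins of level to the mix of levels of the broad TCs. The upstream edges lay close together, at medians of 2 bp and 12 bp downstream of the annotated start. Of the 1186 members, 576 contained the annotated start, 607 lay entirely downstream of it, and 2 entirely upstream. The remaining 1 had no gene in the annotation. An upstream edge 100 bp or more upstream of the annotated start occurred in 4.89% of broad TCs and in 1.19% of the others at the same levels. At least 2 annotated 5′ ends were present for 47.8% of genes with broad TCs and 38.1% of the others. Distances and leader lengths were taken from the end farthest upstream and were not adjusted for that.

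The leaders of the genes were long. Their median length was 285 nt for genes with broad TCs and 170 nt for the other single-start genes at the same levels. Even so, 63.9% of the broad TCs of coding genes reached the annotated start codon, compared with 56.7% of the others, and 233 members extended 100 bp or more past it. At least 2 annotated 5′ ends lay inside 26.3% of broad TCs and 17.0% of the others. Broad TCs had a median width of 288.5 bp and these others 150 bp. A wider TC can take in a start codon or an annotated end through its width alone, and the shares were not adjusted for that. An intron in the leader was annotated for 22.2% of genes with broad TCs and 18.3% of the other genes. Where within a TC its tags lay cannot be read from the tables, so a TC that touches the coding sequence may hold few tags there.

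**Figure D1:**
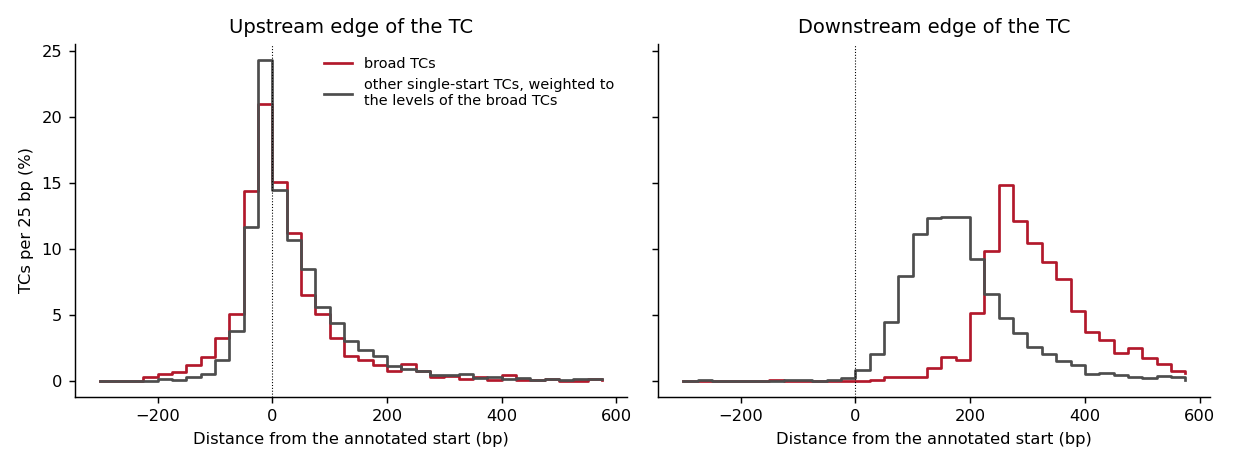
Distance of the upstream edge (left) and the downstream edge (right) of TCs from the annotated start, the annotated 5′ end farthest upstream, in bp, as the percentage of TCs per 25 bp bin, for broad TCs (red) and other single-start TCs weighted to the levels of the broad TCs (grey). The upstream edges overlie each other near the annotated start, while the downstream edges have medians of 306 bp (broad) and 171 bp (others).

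Sequence also differed with width. GC content of the TC had a median of 37.7% in broad TCs and 39.5% in the others at the same levels. In the window from 250 bp upstream to 50 bp downstream of the annotated start, TGGGCC on either strand was found for 14.0% of broad TCs and 25.5% of the others, and AAACCCTA, the telo box, for 3.46% and 7.46%. TATAAA or TATATA within 60 bp upstream of the annotated start was found for 14.9% of broad TCs, 17.1% of TCs from 100 bp to under 250 bp, and 28.5% of TCs under 100 bp, all at the levels of the broad TCs. This search read the strand of the gene only. The annotated start lay inside 48.6%, 44.8% and 34.3% of these TCs, so the window often did not adjoin the starts in use. The other motifs differed by less. The G-box CACGTG was present for 8.78% and 9.10%, and the W-box core TTGACC, which WRKY factors bind, for 15.5% and 14.6%. A match is a run of letters and was not tested as a binding site.

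Broad TCs were highly used. Their mean level over the 15 libraries had a median of 40.9 CPM (quartiles 18.0 and 97.0, range from 1.21 to 7221), while other single-start TCs had a median of 9.70 CPM. The share of single-start TCs that were broad increased in every step of level, from 0.343% under 4 CPM, through 6.43% at 8 to 16 CPM and 13.9% at 32 to 64 CPM, to 27.5% in the highest of the 7 bins, which begins where the bin from 64 CPM ends. The clusters had been drawn on the tags of all libraries together, so a TC with more tags can also gain width from rare tags, whether or not these are starts. Width and level cannot be told apart in that relation. Level also moved with reach: 85.0% of members in that highest bin reached the start codon, with the downstream edge a median of 85.0 bp past it, against 49.4% and 1.5 bp short of it at 8 to 16 CPM. Annotated leaders were also shorter in the highest bin, with a median of 221.5 nt against 336.5 nt. Median widths were 300.5 bp and 281 bp. Most members sat close to the limit, with a median width of 288.5 bp (quartiles 266 and 331). There were 487 members of at least 300 bp, 106 of at least 400 bp and 26 of at least 500 bp. The first 10 bp from the limit upward held 180 members, and the 10 bp below it held 204 single-start TCs.

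The 3 members just inside the limit, all 250 bp wide, were AT1G56190, a phosphoglycerate kinase of 86.3 CPM, G-TMT, a methyltransferase of tocopherol synthesis of 3.70 CPM, and CDKB2;1, a mitotic cyclin-dependent kinase of 21.1 CPM. The 3 just outside, all 1 bp narrower, were STN1, a telomere protein of 13.2 CPM, YAB2, a YABBY transcription factor of 6.26 CPM, and CAX11, a cation exchanger of 21.4 CPM.

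Spread between replicates was close for broad TCs and for others of like level. The median coefficient of variation within groups was 14.1% for broad TCs and 14.5% for other single-start TCs at the same levels, and edgeR's biological coefficient of variation was 0.173 and 0.175. TCs under 100 bp at those levels had 17.6% and 0.198. The expected contribution of tag counting alone was 3.50% for broad TCs, which is small beside the spread measured.

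The widest member was CWLP, which encodes a cell wall-plasma membrane linker protein, at 877 bp (chr3:7795567-7796443, minus strand, TAIR10). Its TC began 17 bp downstream of the annotated start, passed the start codon at 122 bp, and ended at 893 bp, so that 88.0% of its bases lay in coding sequence. CWLP had 714, 939 and 3516 CPM in the wt 30 min libraries, against 1102, 994 and 1133 CPM in the wt 10 min libraries. The hen2-4 libraries had 947, 732 and 2004 CPM at 30 min, against 856, 805 and 1245 CPM at 10 min. One replicate at 30 min in each genotype stood far above the other 2, and the time change was not called (log2 0.68 ± 0.50, SE, in wt). On the other strand, the noncoding RNA AT3G22121 had a broad TC of 667 bp that overlapped that of CWLP. AT3G22121 had 30.6, 15.8 and 82.1 CPM in wt at 30 min and 24.0, 44.1 and 56.6 CPM in wt at 10 min, with the highest value in the same library, replicate 3, as CWLP. Tags were counted by strand, and 23 members (1.94%) overlapped a TC on the opposite strand, compared with 0.386% of others at the same levels. A wider TC can overlap another more often through its width alone.

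AT1G78830, a lectin family gene with a TC of 682 bp, had 1985, 1736 and 2177 CPM in wt at 30 min, against 590, 600 and 615 CPM in wt at 10 min. Its hen2-4 libraries had 2091, 1632 and 1922 CPM at 30 min, against 508, 630 and 584 CPM at 10 min, so the times did not overlap in either genotype (log2 1.71 ± 0.16 in each, edgeR adjusted p = 1.1e-06 in wt and 1.6e-06 in hen2-4). AT3G10020, of 677 bp, rose as well, by log2 1.73 ± 0.25 in wt and 1.19 ± 0.24 in hen2-4. SRF3, a receptor-like kinase of the STRUBBELIG family, had a TC of 666 bp that ran over nearly the whole leader and ended 19 bp past the start codon, with 3.0% of its bases in coding sequence.

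Genes of photosystem I and its electron donor led by level. DRT112, a plastocyanin that carries electrons to photosystem I, had the highest level of all members at 7221 CPM, over a TC of 627 bp of which 70.0% was coding sequence. PSAD-1, which encodes a subunit of photosystem I, came next at 7015 CPM with 675 bp, followed by its close copy PSAD-2 at 2717 CPM with 364 bp, and PSAG, another subunit, stood at 2398 CPM with 280 bp. Reads of 25 bases were kept only where they aligned uniquely, so shares between PSAD-1 and PSAD-2 are uncertain. PSAD-1 had 6009, 8503 and 5812 CPM in wt at 30 min and 8222, 6929 and 8412 CPM in wt at 10 min, which overlap, and none of the 15 members whose product names put them in the photosynthesis class was called in either time comparison. DRT112, annotated as a cupredoxin, is not counted among the 15 and was not called either. Of the 29 other single-start photosynthesis genes, 1 was called in wt and 3 in hen2-4, all lower. AT3G48140, a B12D family gene of 2679 CPM, was the remaining one of the 5 highest.

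The kinds of gene were uneven among broad TCs. Words in the product names put 85 members (7.17%) among protein kinases, compared with 1.90% of other single-start TCs at the same levels. Photosynthesis genes made up 1.26% of members and 0.514% of the others, and 34.1% of all single-start photosynthesis genes were broad. Transcription factors made up 3.20% (38 members) and 1.73%. Ribosomal protein genes went the other way, with 0.759% of members (9 genes) and 4.38% of the others, although the 3 highest of them, AT3G53430, AT2G34480 and AT1G18540, had from 632 to 1113 CPM. Genes of RNA binding and processing (1.52% and 2.45%) and of heat shock and chaperones (0.843% and 1.48%) were also fewer. Ubiquitin genes (3.96% and 3.27%) and disease resistance genes (0.590% and 0.501%) were close. These are counts without a test.

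**Figure D2:**
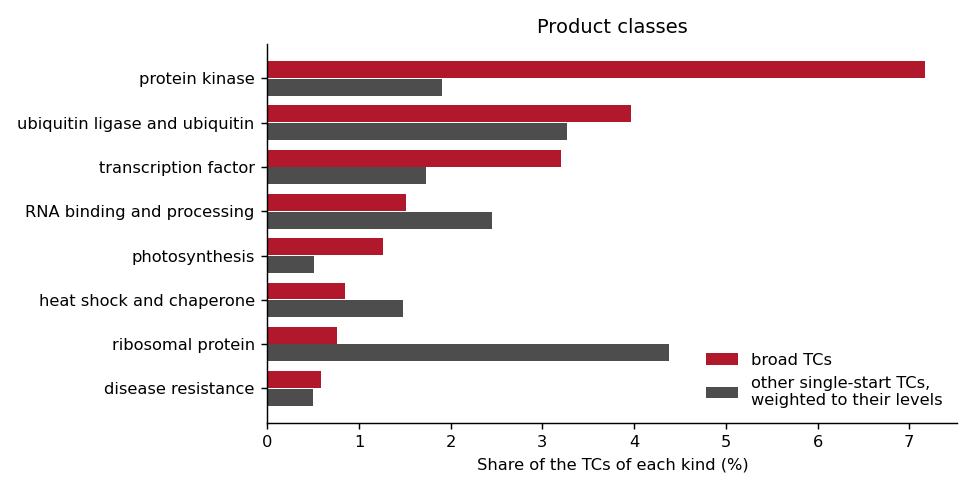
Share of broad TCs (red) and of other single-start TCs weighted to the levels of the broad TCs (grey) whose gene product falls in each class, in percent of the TCs of each kind. Protein kinases took 7.17% of broad TCs and 1.90% of the others, and ribosomal proteins 0.759% and 4.38%.

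Between 10 and 30 min in wt, 129 of the 1186 broad TCs rose and 22 fell, where a call needed a Benjamini-Hochberg adjusted p of at most 0.05 over all TCs in edgeR's quasi-likelihood test and a log2 change of at least 1. This was 10.9% and 1.86% of members, beside 8.25% of all 26504 TCs tested that rose and 4.36% that fell. All 1186 members passed the filter on low counts. Other single-start TCs weighted to the same levels rose in 8.23% and fell in 1.26% of cases. Split by width at those levels, TCs from 100 bp to under 250 bp rose in 7.30% and fell in 1.21%. TCs under 100 bp rose in 13.9% and fell in 1.47%, so rises were more frequent there than among broad TCs. Between broad TCs and TCs from 100 bp to under 250 bp, the gap in rises was largest in the highest bin of level, at 23.8% and 10.6%. That bin has no upper limit, and levels were not matched within it. Its median levels were 244 CPM (broad), 203 CPM (100 bp to under 250 bp) and 187 CPM (under 100 bp). The median log2 change of members was 0.05, that of all TCs tested -0.02, and that of the weighted others 0.11. Scaled by library size alone, without TMM, the median of all TCs tested was -0.28 in wt and -0.29 in hen2-4, and 95 members then rose in wt and 59 fell, which is 61.7% of calls higher in place of 85.4%.

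In hen2-4, 112 broad TCs rose and 49 fell between 10 and 30 min, beside 7.29% higher and 6.32% lower among all TCs tested. The members' shares were 9.44% and 4.13%, and the weighted others had 7.13% and 1.78%. At those levels TCs from 100 bp to under 250 bp had 6.32% and 1.73%, and TCs under 100 bp had 11.7% and 2.07%. Here library sizes alone gave 76 rises and 101 falls of members, so that the balance of directions depends on the scaling in this genotype. The 2 time comparisons use separate libraries: 103 members rose in both, which was 79.8% of those that rose in wt and 91.96% of those that rose in hen2-4. Falls were shared by 17 members, 77.3% of the falls in wt and 34.7% of those in hen2-4, and no member was called in opposite directions. Among the other single-start TCs, not weighted by level, shared rises were 69.06% of those in wt and 83% of those in hen2-4, and shared falls 51.19% and 40.03%. The difference between these shares and those of the members was not tested. The difference between the time changes of hen2-4 and wt was called for 0 members by edgeR, with 59 at an unadjusted p under 0.05, and for 0 by DESeq2 and by limma voom. Among all TCs tested, 0.00377% were called for that difference.

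**Figure D3:**
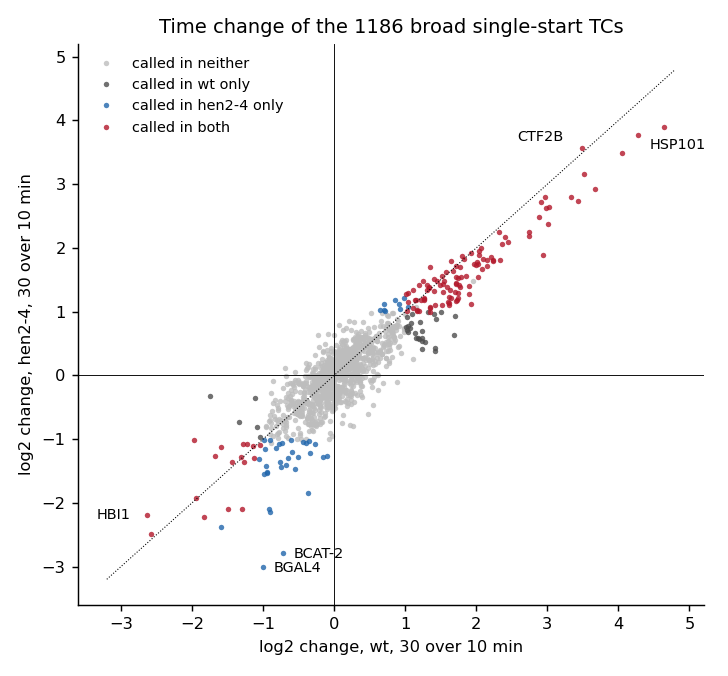
log2 change from 10 to 30 min of each broad single-start TC in wt (horizontal axis) and hen2-4 (vertical axis). Each point is 1 of 1186 TCs, coloured by the comparison in which it was called, and the dotted line marks equal change. The 103 shared rises and 17 shared falls lie along the line, and BGAL4 and BCAT-2 lie below it.

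Level is the mean over all 15 libraries, 9 of them at 30 min, so a rise itself moves a TC to a higher bin and a fall to a lower one, and the split of calls by level is in part set by the change. HSP101, for example, lay in the highest bin with a mean of 141.7 CPM although its 10 min libraries averaged 16.1 CPM (hen2-4) and 10.7 CPM (wt). With that limit, which holds for TCs of every width, in the highest bin of level, 23.8% of broad TCs rose in wt and 22.0% in hen2-4, compared with 10.6% and 9.42% of TCs from 100 bp to under 250 bp and 17.8% and 13.3% of the 45 TCs under 100 bp. One bin lower the broad TCs were at 10.5% and 8.22%, near the 10.1% and 9.28% of TCs from 100 bp to under 250 bp. The 101 TCs under 100 bp rose more often in that bin, at 19.8% and 15.8%. None of the 15 members under 4 CPM and none of the 72 members at 4 to 8 CPM rose in either genotype. Rises were also few among TCs from 100 bp to under 250 bp at 4 to 8 CPM, at 4.955% (wt) and 3.604% (hen2-4). Under 4 CPM those TCs were at 3.535% and 2.237%. With so few members in these bins, the absence of rises cannot set broad TCs apart, and the difference was not tested. Width beyond the limit was not accompanied by a steady change: 10.2% of members under 300 bp, 12.1% of those from 300 to under 400 bp and 11.3% of those of 400 bp or more rose in wt.

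**Figure D4:**
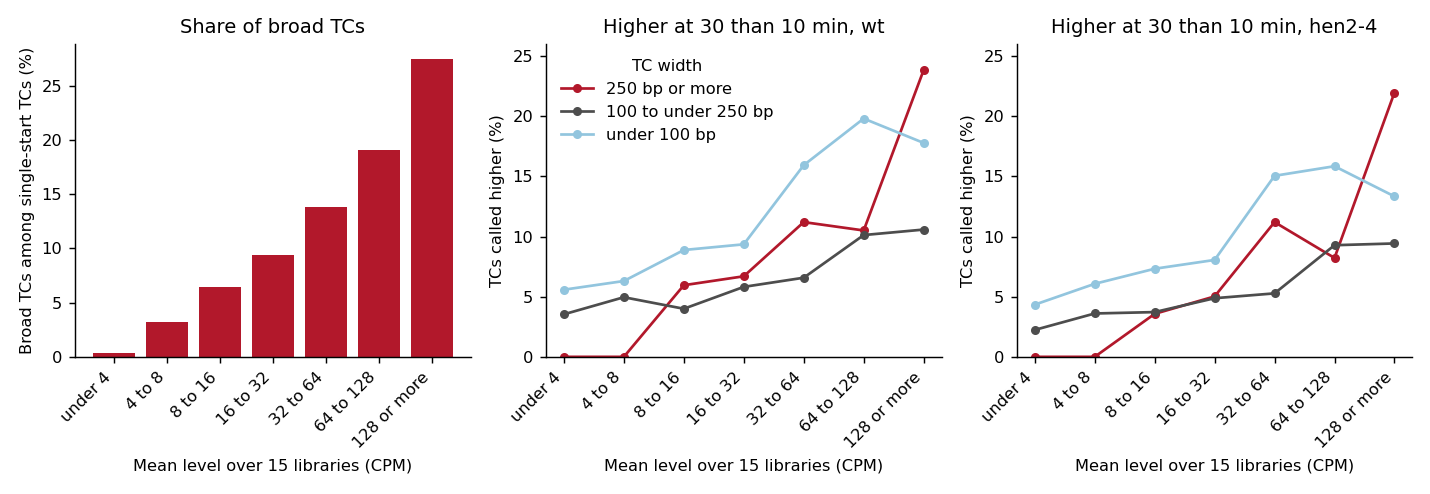
Share of single-start TCs that were broad (left) and share of TCs called higher at 30 than at 10 min in wt (middle) and hen2-4 (right), in percent, by bins of mean level in CPM. Bars give the share of broad TCs, and lines the TCs of 250 bp or more (red), 100 to under 250 bp (grey) and under 100 bp (light blue). Broad TCs were the most often higher in the top bin, at 23.8% in wt and 22.0% in hen2-4. One bin lower the TCs under 100 bp were the most often higher, at 19.8% and 15.8%.

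The same 6 genes had the largest rises in both genotypes. HSP101 encodes a chaperone that takes protein aggregates apart, and its TC of 258 bp (chr1:27940058-27940315, minus strand) lay from 54 to 311 bp downstream of the annotated start, all of it in the leader. HSP101 had 204, 242 and 361 CPM in wt at 30 min, against 10.7, 10.3 and 11.3 CPM in wt at 10 min. In hen2-4 it had 209, 295 and 212 CPM at 30 min, against 16.5, 12.5 and 19.2 CPM at 10 min. The times were far apart in both genotypes, with log2 changes of 4.65 ± 0.29 (adjusted p = 2.9e-08) and 3.89 ± 0.28 (adjusted p = 1.4e-07).

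AT2G31945, which encodes an uncharacterized protein, had 668, 919 and 897 CPM in wt at 30 min, against 52.2, 39.1 and 37.3 CPM in wt at 10 min. Its hen2-4 libraries had 734, 671 and 965 CPM at 30 min, against 59.4, 73.1 and 41.1 CPM at 10 min (log2 4.27 ± 0.25 in wt and 3.77 ± 0.24 in hen2-4). Every 30 min library was far above every 10 min library. AT1G74360 encodes a leucine-rich repeat receptor kinase, and it had 80.5, 64.3 and 229 CPM in wt at 30 min, against 7.09, 9.01 and 6.34 CPM in wt at 10 min. The log2 changes of AT1G74360 were 4.05 ± 0.40 in wt and 3.49 ± 0.39 in hen2-4. Its wt replicate 3 at 30 min stood above the other 2, and the rise was called without that library too.

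PLA2A, a phospholipase that releases fatty acids from membrane lipids, had 381, 170 and 427 CPM in wt at 30 min, against 23.7, 25.7 and 27.2 CPM in wt at 10 min (log2 3.67 ± 0.40). The TC of AT1G30755, a DUF668 gene, was 334 bp wide and began 732 bp downstream of the annotated start, and its log2 changes were 3.52 ± 0.28 (wt) and 3.16 ± 0.28 (hen2-4). It was 1 of 19 members that began more than 500 bp downstream. CTF2B, a FAD-dependent oxidoreductase, had rises of log2 3.49 ± 0.25 (wt) and 3.57 ± 0.25 (hen2-4). In all, 35 members rose by log2 2 or more in wt and 20 in hen2-4.

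**Figure D5:**
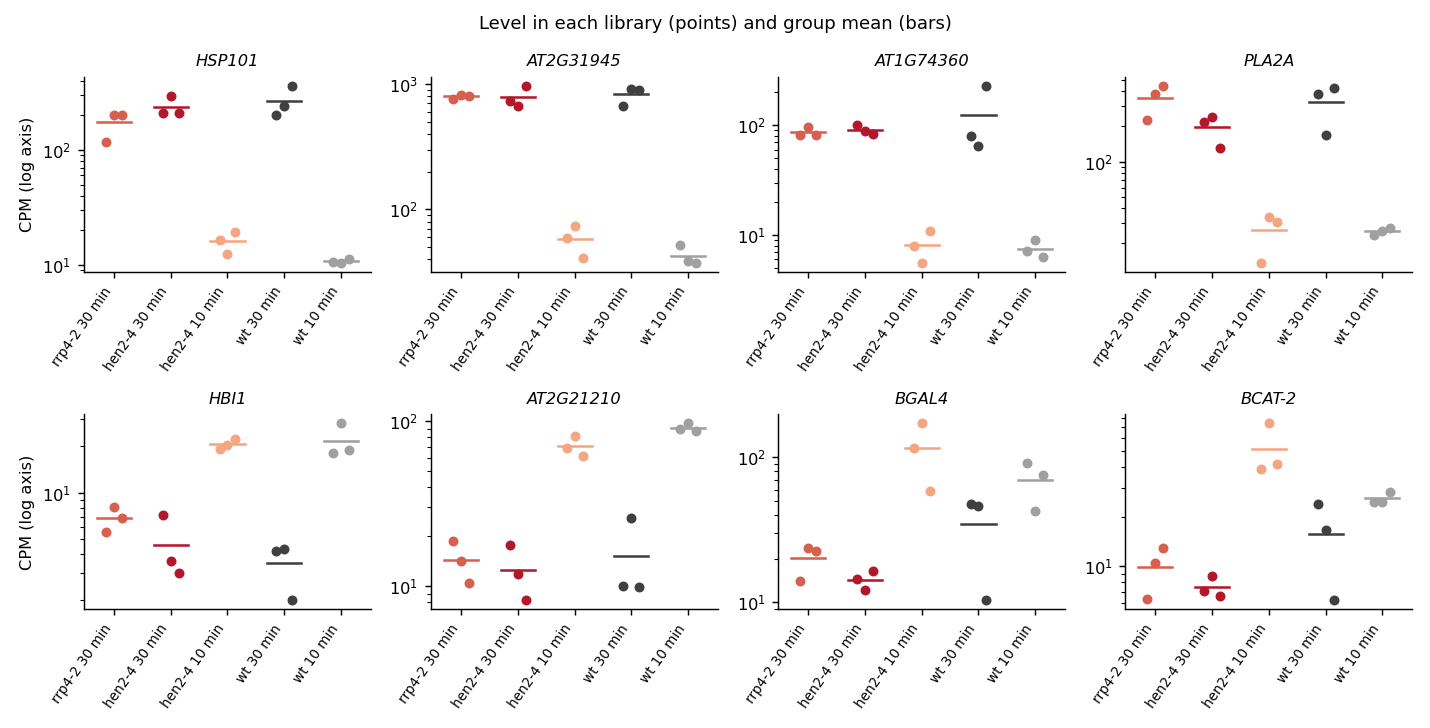
CPM of 8 members in each library (points, log axis) with the mean of the 3 libraries (bar), for the groups rrp4-2 30 min, hen2-4 30 min, hen2-4 10 min, wt 30 min and wt 10 min. The upper row shows 4 genes that rose between 10 and 30 min, and the lower row shows HBI1 and AT2G21210, which fell in both genotypes, and BGAL4 and BCAT-2, which were called lower in hen2-4 and not in wt.

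The largest fall in wt was that of HBI1, a basic helix-loop-helix factor that promotes cell elongation. HBI1 had 4.21, 4.32 and 2.00 CPM in wt at 30 min, against 18.1, 28.3 and 19.1 CPM in wt at 10 min. In hen2-4 HBI1 had 7.12, 3.59 and 3.03 CPM at 30 min, against 19.3, 20.5 and 22.2 CPM at 10 min. The times did not overlap, and the log2 changes were -2.63 ± 0.33 and -2.19 ± 0.32 (adjusted p = 2.6e-05 and 0.00016).

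AT2G21210, of the auxin-responsive SAUR family, had 10.1, 25.9 and 9.82 CPM in wt at 30 min, against 89.3, 96.8 and 87.0 CPM in wt at 10 min. It changed by log2 -2.58 ± 0.35 in wt and -2.49 ± 0.35 in hen2-4. GAI, a DELLA protein that represses gibberellin responses, had 11.9, 15.4 and 11.3 CPM in wt at 30 min, against 45.9, 52.4 and 50.2 CPM in wt at 10 min, a log2 change of -1.94 ± 0.17. In hen2-4 GAI changed by -1.93 ± 0.17. AT5G43440, an oxygenase, and AT3G15570, an NPH3 family gene, were also called lower in both genotypes, although the call of AT3G15570 in hen2-4 (log2 -1.01) was lost in 3 of 14 alternatives, each of which left out 1 hen2-4 library (10 min replicate 3, 30 min replicate 2 or 30 min replicate 3). BRG2 was called lower in wt (log2 -1.75 ± 0.40) and not in hen2-4 (-0.33 ± 0.39), and the 2 changes were not called different from each other (adjusted p = 0.87).

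BGAL4 and BCAT-2 had the largest falls in hen2-4. BGAL4, a beta-galactosidase with a TC of 401 bp, had 14.4, 12.3 and 16.3 CPM in hen2-4 at 30 min, against 116, 172 and 58.8 CPM in hen2-4 at 10 min. In wt it had 47.7, 46.4 and 10.3 CPM at 30 min, against 91.1, 42.5 and 75.2 CPM at 10 min, where the times overlapped. BCAT-2, a transaminase of branched-chain amino acids, had 7.05, 8.76 and 6.59 CPM in hen2-4 at 30 min, against 38.8, 74.0 and 41.9 CPM in hen2-4 at 10 min. Its wt libraries had 24.0, 16.7 and 6.21 CPM at 30 min, against 24.8, 24.6 and 28.1 CPM at 10 min. For both genes the lowest wt library was 30 min replicate 3, the one that correlated least with its group. The log2 changes were -3.01 ± 0.49 for BGAL4 and -2.79 ± 0.39 for BCAT-2 in hen2-4, and -0.999 ± 0.46 and -0.72 ± 0.37 in wt. The change in hen2-4 minus that in wt was -2.01 ± 0.66 for BGAL4 and -2.06 ± 0.53 for BCAT-2, and neither was called (adjusted p = 0.82 and 0.68). AT4G40065, a noncoding RNA, changed by log2 -2.39 ± 0.56 in hen2-4.

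Among the 85 protein kinase members, the largest class by number, 22 rose and 2 fell in wt, and 17 rose and 5 fell in hen2-4, with median log2 changes of 0.25 and 0.08. Of the 424 other single-start kinases, at all levels, 79 rose and 16 fell in wt, and 55 rose and 26 fell in hen2-4. No difference between broad and other TCs of a class was tested. The 3 of highest level were receptor-like kinases. CRK11, of the cysteine-rich family, had 555, 591 and 606 CPM in wt at 30 min, against 121, 148 and 109 CPM in wt at 10 min (log2 2.21 ± 0.19). BIR1, which interacts with the co-receptor BAK1 and restrains immune signalling, had rises of log2 1.404 ± 0.19 (wt) and 1.32 ± 0.19 (hen2-4). CRK29 rose by 1.02 ± 0.15 in hen2-4, a call lost in 5 of 14 alternatives (library sizes alone, both fits on log2 of TPM, and without hen2-4 replicate 2 of either time), and stood at 0.71 ± 0.15 in wt.

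Of the 38 transcription factor members, 7 rose and 2 fell in wt, and 5 rose and 4 fell in hen2-4, beside 34 and 26 (wt) and 27 and 26 (hen2-4) of 405 other transcription factors. WRKY15 had 326, 392 and 454 CPM in wt at 30 min, against 88.7, 94.1 and 80.6 CPM in wt at 10 min (log2 2.15 ± 0.15, and 1.72 ± 0.15 in hen2-4). HB-1, a homeobox factor of similar level, stood at -0.27 ± 0.18 in wt. Of the 10 heat shock and chaperone members 2 rose in each genotype, HSP101 and AT1G76700, a DNAJ family gene with a log2 change of 1.78 ± 0.13 in wt, and of 161 others 30 rose in wt and 27 in hen2-4. Of the 7 disease resistance members 3 rose in each genotype, among them AT3G44630 (1.89 ± 0.24 in wt) and AT5G22690 (1.70 ± 0.19 in wt), both of the TIR-NBS-LRR class of intracellular immune receptors. Of 104 other disease resistance genes 23 rose in wt and 15 in hen2-4. None of the 9 ribosomal protein members and none of the 18 RNA binding members was called in either comparison. Of the 237 other ribosomal protein genes 0 were called in wt and 2, both lower, in hen2-4. Of the 292 other RNA binding genes 8 rose and 2 fell in wt, and 9 rose and 5 fell in hen2-4.

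A hand-written list of 43 genes of flg22 signalling held 27 single-start genes, and 9 of these had broad TCs. The remaining 18 had narrower TCs. Among the 9, only AGB1 and RBOHD rose, in both genotypes, and 7 were not called, while 12 of the other 18 rose in wt and 8 in hen2-4. Among all TCs tested, 8.25% rose in wt and 7.29% in hen2-4. The 2 sets differ in kind and level: the 18 include FRK1 and NHL10, listed as targets, and the ubiquitin ligases PUB22, PUB23 and PUB24, and the 9 include neither kind. Median levels were 93.7 CPM for the 9 and 29.2 CPM for the 18. The difference in rises was not tested. AGB1, the beta subunit of the G protein that acts with the receptor complex, had 178, 163 and 216 CPM in wt at 30 min, against 65.6, 66.2 and 61.7 CPM in wt at 10 min (log2 1.52 ± 0.14). RBOHD, the NADPH oxidase that makes the apoplastic burst of reactive oxygen, had 111, 125 and 127 CPM in wt at 30 min, against 45.8, 63.0 and 42.2 CPM in wt at 10 min (log2 1.27 ± 0.23).

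FLS2, the flg22 receptor, had 27.1, 16.7 and 17.1 CPM in wt at 30 min and 12.3, 18.3 and 15.5 CPM in wt at 10 min, which overlap (log2 0.41 ± 0.23). The MAP kinase MPK4 passed the adjusted p but not the fold limit, with log2 0.91 ± 0.21 in wt and 0.77 ± 0.21 in hen2-4, and MPK6 stood at 0.36 ± 0.19 in wt. The calcium-dependent kinases CPK5 and CPK6 were at 0.26 ± 0.24 and 0.51 ± 0.17 in wt, and MKP1, a phosphatase of MAP kinases, at 0.30 ± 0.41. ERF105 (AT5G51190), an ethylene response factor, had 190, 153 and 121 CPM in wt at 30 min and 125, 186 and 108 CPM in wt at 10 min. In rrp4-2 at 30 min ERF105 had 227, 443 and 384 CPM, above all 3 wt libraries of that time, and it was called higher there.

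Few broad TCs were called in the mutants. In hen2-4 against wt, 8 members were higher and 1 lower at 10 min beside 5.11% higher and 0.268% lower (5.38% in all) among all TCs tested. At 30 min 5 members were higher and 3 lower in hen2-4, beside 4.75% and 0.313% (5.07% in all) of all TCs. In rrp4-2 against wt at 30 min, 15 members were higher and 7 lower, beside 6.59% and 1.24% (7.83% in all). In either direction these were 0.759%, 0.675% and 1.86% of members, while other single-start TCs at the same levels were called in 0.964%, 0.942% and 2.28% of cases. The balance for rrp4-2 turned with the processing. Without wt 30 min replicate 1 the calls were 14 higher and 19 lower, and without replicate 2 they were 18 and 17. They were 15 and 1 with library sizes alone, which is 93.8% higher in place of 68.2%, 15 and 2 with limma voom and 15 and 11 with DESeq2. Both comparisons at 30 min use the same wt libraries. Between rrp4-2 and hen2-4 at 30 min, edgeR called 0 members (126 at an unadjusted p under 0.05), DESeq2 2 and limma voom 1, beside 0.155% higher and 0.102% lower among all TCs tested by edgeR.

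Genes that are not protein coding were among the few called, a grouping made after their values were seen. The 9 such members include 4 of the 15 that were higher in rrp4-2, AT1G27921, AT2G23672, AT3G13061 and AT5G01542. Among all TCs tested, coding or not, 6.59% were higher in rrp4-2. Calls among noncoding genes outside the members were not counted, so 4 of 9 cannot be read as particular to broad TCs. AT3G13061 had 17.3, 33.6 and 16.8 CPM in rrp4-2, against 3.38, 3.71 and 0.832 CPM in wt at 30 min, a log2 difference of 3.09 ± 0.48 (adjusted p = 0.00039). Its hen2-4 libraries had 16.4, 32.01 and 25.6 CPM at 10 min, against 3.84, 4.92 and 7.89 CPM in wt at 10 min (log2 2.17 ± 0.45). AT1G27921, with a TC of 569 bp, had 48.3, 47.9 and 49.5 CPM in rrp4-2, against 15.5, 16.1 and 9.65 CPM in wt at 30 min (log2 1.82 ± 0.20). In hen2-4 at 30 min AT1G27921 had 32.9, 31.5 and 35.2 CPM (log2 1.27 ± 0.20 over wt).

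Coding genes were also among them. AT5G25280, a serine-rich protein gene of high level, had 1696, 1933 and 1422 CPM in hen2-4 at 10 min, against 283, 269 and 365 CPM in wt at 10 min (log2 2.46 ± 0.26). At 30 min it had 1025, 1097 and 1213 CPM in hen2-4, against 418, 551 and 311 CPM in wt. AT5G13250, a RING finger gene whose TC lay from 82 bp upstream to 184 bp downstream of the annotated start, had 15.2, 12.6 and 17.7 CPM in rrp4-2, against 3.84, 3.59 and 1.77 CPM in wt at 30 min (log2 2.30 ± 0.24). AT2G24945 differed by 1.95 ± 0.27 in the same comparison. The pseudogene AT1G03580 was higher in hen2-4 at 10 min (log2 1.28 ± 0.35), a call lost in 6 of its 14 alternatives.

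Among members lower in a mutant, AT4G23670, a lipid transport family gene, had 230, 308 and 289 CPM in hen2-4 at 10 min, against 772, 707 and 762 CPM in wt at 10 min (log2 -1.44 ± 0.19). AT2G23200, a kinase, had 14.97, 17.4 and 14.3 CPM in hen2-4 at 30 min, against 39.2, 28.1 and 34.4 CPM in wt at 30 min (log2 -1.12 ± 0.21). AT2G25450, an oxygenase with a TC of 481 bp, had 146, 179 and 144 CPM in rrp4-2, against 295, 345 and 425 CPM in wt at 30 min (log2 -1.18 ± 0.24). The calls of 3 others were lost without wt 30 min replicate 3, the highest library of its group for each, and under other alternatives too. They were AT2G37540 in hen2-4 at 30 min, and ISA3, a starch debranching enzyme, and AKR4C8, an aldo-keto reductase, in rrp4-2. AKR4C8 had 20.6, 29.1 and 24.0 CPM in rrp4-2, against 27.2, 34.5 and 100.1 CPM in wt at 30 min, and its log2 difference of -1.13 ± 0.35 was smallest, under its alternatives, at -0.33.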

How the data were processed

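The authors trimmed linkers from the reads, kept the first 25 bases, aligned them to TAIR10 with Bowtie 1.1.2, counted the 5′ ends of uniquely aligned reads and joined TSSs within 20 bp on a strand, over all libraries together, into TCs. They deposited integer counts per TC and per gene, and the authors' TPM values per TC, which are counts scaled to library totals and served only as an alternative. Each table held 9 columns of other libraries, not used here, and a TPM table per gene was not used.

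A TC was linked to a gene where its counts equalled those of the gene in all 15 libraries. Counts were fitted with edgeR 4.0.16 in R 4.3.3 (TMM, filterByExpr, 1 coefficient per group, all 15 libraries), which tested 26504 TCs and removed 173. Calls were made at a Benjamini-Hochberg adjusted p up to 0.05 together with a log2 change of 1 or more either way. The alternatives were DESeq2 1.42.0, limma 3.58.1 (voom, and trend on log2 of TPM), no TMM, no filter, the compared groups alone, a replicate term, other width limits, other level bins and each library left out. Levels of other single-start TCs were weighted over 7 bins to those of the broad TCs. Sequence was read from TAIR10.1, and 0 chromosomes had a TC beyond the end of its sequence. Product classes were matched by words without regard to case, a choice made after values were seen.

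Genes named in the text are the 10 widest, the 5 of highest level, the 6 largest called rises and falls with time at 5 CPM or more in each genotype, the 4 and 3 in each mutant against wt (the direct comparison and the difference of time changes had no calls), members of the flg22 list, the 3 of highest level per class and the 3 on either side of the width limit, apart from those said to have been chosen otherwise; the uncalled or lower-ranked of these are summarised as counts. Members, lists and tests were chosen with earlier results of these data known.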

Additional observations from a re-analysis of the deposited data

How the results depend on the processing

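Of 118 alternative counts of called members over 7 comparisons, 102 were within 1.5 times of the reported count. The rest were mostly other width limits, which change the number of members: at 300 bp or more the calls were 64 (wt time), 71 (hen2-4 time), 5 and 3 (hen2-4 against wt at 10 and 30 min) and 8 (rrp4-2 against wt), and at 200 bp or more 321, 310, 20, 24 and 52, with 2 between the mutants. Between the mutants, where edgeR called 0, limma voom and limma-trend on log2(TPM + 1) called 1, DESeq2 called 2 and a fit of the compared groups alone called 4.

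Leaving out 1 library at a time gave 145 to 176 calls for the time change in wt, 146 to 174 in hen2-4, 7 to 11 and 6 to 12 for hen2-4 against wt at 10 and 30 min, and 17 to 35 for rrp4-2 against wt. The highest of these, 35, came without wt 30 min replicate 2, and members lower in rrp4-2 numbered from 3 to 19 over these fits. For the mutants against each other and for the difference of time changes the range was 0 to 0.

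Replicate numbers are shared between groups with no statement that they pair libraries, and correlations of same-numbered deviations ran from -0.35 to 0.33. With a replicate block the calls numbered 153 and 159 for the time changes in wt and hen2-4, 9 and 8 for hen2-4 against wt, and 18 for rrp4-2. Without TMM 101 of 177 calls in hen2-4 were falls, and with log2(TPM + 0.1) 94 of 169. Other level bins moved the share called among other single-start TCs from 9.49% to 9.52% in wt, and a minimum of 5 CPM to 9.41%.

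Over 71 results of named members, 936 of 994 alternative values were still called, 58 were not, and 0 changed sign. AKR4C8 lost its call in 10 of 14 and ISA3 in 7 of 14. RBOHD, AT3G44630 and AT3G10020 lost theirs in hen2-4 without TMM.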
